A study of Homo sapiens with 12 samples.

Results

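The p53 target genes described here are 9 genes that a working p53 protein switches on, CDKN1A, MDM2, BBC3, BAX, FAS, GADD45A, GADD45B, RRM2B and ZMAT3. They were chosen by symbol from general knowledge of the p53 pathway and not by a rule on their counts, but earlier results of these data were known. All 9 were found among the 60675 gene IDs of the table, and all 9 passed the filter on low counts, as did 15374 genes in total. The genes were measured in HT29 cells, a single established line from a human colorectal adenocarcinoma, by RNA sequencing of 12 libraries. The cells were kept for 24 h in growth medium to which the vehicle, PBS with 2% DMSO, or a water extract of Aconitum carmichaeli Debeaux (ACD) was added. The extract was given at 20 µg/mL, called the low dose, at 100 µg/mL, the medium dose, and at 500 µg/mL, the high dose, and the 4 groups had 3 libraries each. The titles and the treatment field name ACD, but the preparation of the extract in the labels is that of Poria cocos, and the groups follow the titles. The replicates are not stated to be separate cultures, so the p-values measure only the spread between these libraries, which may be technical. The doses are all compared with the same 3 vehicle libraries.

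p53 is a transcription factor that is stabilized after DNA damage and other stress and then binds a defined DNA site near its target genes. Its targets stop the cell cycle (CDKN1A), start apoptosis (BBC3, BAX, FAS), act in repair and stress signalling (GADD45A, GADD45B, RRM2B), bind RNA (ZMAT3) or return p53 to a low level (MDM2). HT29 is known as a line with mutant p53, in which the switching on of these genes is impaired, and many of them can also be raised by other transcription factors. The table holds counts per gene, so the state of the protein was not examined here.

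The DNA that a working p53 would bind is shown first, because it is the feature by which these genes are grouped. In GRCh38, 3000 bases on each side of the start of the Ensembl canonical transcript (GENCODE 44) were searched for the p53 consensus, a pair of 10-base half-sites without a spacer, with both cores intact and at most 2 mismatches elsewhere. RRM2B was not searched. A match was found in 5 of the 8 genes searched, against 2.87% of the 19268 protein-coding genes searched in the same way. The 8 were chosen as known p53 targets, so this contrast is not a separate finding. The 20-base matches are given 5′ to 3′ on the strand of the gene, with the 2 cores in capitals.
CDKN1A: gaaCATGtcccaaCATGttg
ZMAT3: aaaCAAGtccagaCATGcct
GADD45A: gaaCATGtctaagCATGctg
FAS: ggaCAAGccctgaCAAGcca
GADD45B: agaCTTGgttgaaCTTGgtt
The CDKN1A match, chr6:36676449-36676468 on the plus strand, lay upstream of the transcript and had 2 mismatches, and the ZMAT3 match, chr3:179070188-179070207 on the minus strand, was intronic and had 0 mismatches. The GADD45A match, chr1:67686775-67686794 on the plus strand, was intronic with 1 mismatch. The FAS match, chr10:88991309-88991328 on the plus strand, was also intronic, and the GADD45B match, chr19:2478021-2478040 on the plus strand, lay in an untranslated part of an exon, each with 2 mismatches. MDM2, BBC3 and BAX had no match, which says only that these letters with these limits were not in the window. A match is a description of the sequence and not evidence of binding.

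The libraries held between 15941255 and 33866644 expected counts (estimated reads per gene), with a median of 23833237. Levels are given as CPM, counts scaled to a common library size after TMM, and they compare libraries for 1 gene and not genes with each other, since they are not per length. All 10 markers of colorectal epithelium were detected, with EPCAM at a mean of 530 CPM and CDX1 at 1.25 CPM, and their summed level was 11040 to 13010 CPM with vehicle and 11230 to 13140 CPM at the high dose. Of 10 markers of other cell types, COL1A2 was at 0 in every library and DCN, PDGFRB, PTPRC, CD3E and VWF had at most 3 counts in any library. CD68, PECAM1, COL1A1 and GFAP were detected in every library, with 120 to 376, 28 to 63, 5 to 42 and 1 to 10 counts. PECAM1 had a mean of 1.93 CPM and COL1A1 of 1.19 CPM. The summed level of the 10, most of it CD68, was 9.80 to 11.0 CPM with vehicle and 12.7 to 15.2 CPM at the high dose. The 2 mitochondrial ribosomal RNAs took 0.982 to 1.22% of the counts with vehicle and at the low dose, 1.96 to 2.18% at the medium dose and 11.3 to 12.5% at the high dose. High-dose replicate 2 stood apart, since the SD of its log2 differences from the other 2 libraries of its group was 0.502 and that of the other 11 libraries was 0.102 to 0.293. Fits without mitochondrial genes and fits without 1 library are given below. The part of these differences in the results was not otherwise tested.

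Of the 9 genes, 1 rose, CDKN1A, and its rise of 1.49-fold at the high dose was just below the limit of 1.5-fold. Differentially expressed genes (DEGs) were those with an adjusted p under 0.05 in edgeR's quasi-likelihood test, adjusted over all genes tested by Benjamini-Hochberg, and a fold change over 1.5. By this definition 0 of the 9 genes were DEGs at the high, medium or low dose, beside 2.93%, 0.676% and 0.111% of all genes tested. DESeq2 called 0 of the 9 at each dose as well. Without high-dose replicate 2, the DEGs over all genes rose from 451 to 768, from 104 to 249 and from 17 to 109 at the high, medium and low dose, and 1 of the 9, CDKN1A, was among those of the high dose. An unadjusted p under 0.05 was reached by 2 of the 9 at the high dose (20.1% of all genes tested), by 1 at the medium dose (11.7%) and by 1 at the low dose (7.95%). Without the fold limit, 1 of the 9 passed at the high dose, beside 5.77% of all genes tested, and 0 passed at the medium and low doses (1.01% and 0.124%). The median log2 fold change of the 9 genes was 0.07, −0.02 and −0.06 at the high, medium and low dose, beside 0.0052, −0.0095 and −0.0014 over all genes tested. These shares and medians are near those of all genes tested, and with 9 genes 1 call is not a result about the group.

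**Figure D1:**
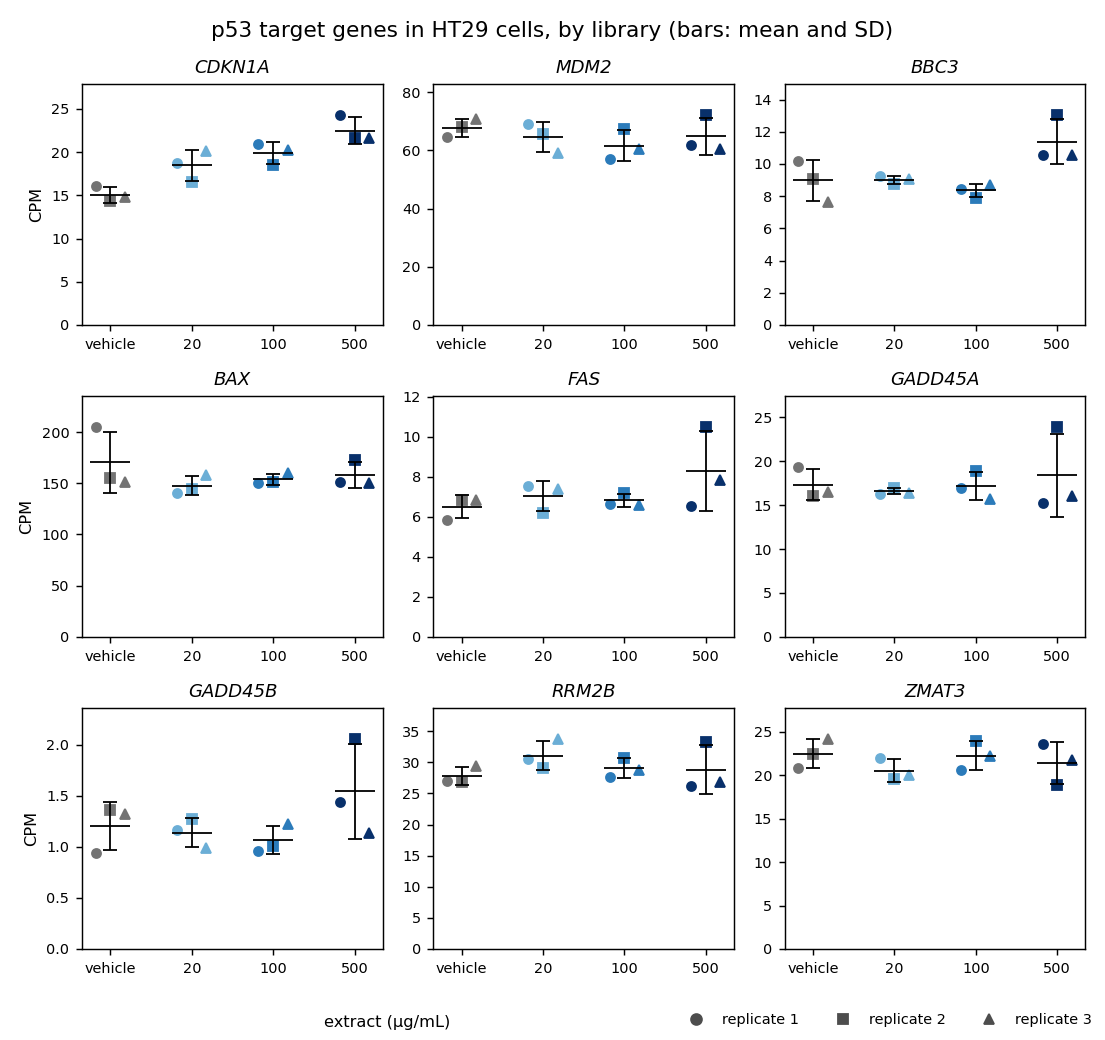
Levels of the 9 p53 target genes in CPM (vertical axis, from 0) by group (horizontal axis, vehicle or extract in µg/mL), with 1 point per library, shaped by replicate, and bars for the mean and SD of the 3 libraries. CDKN1A rises from 15.1 CPM with vehicle to 22.5 CPM at 500 µg/mL, and high-dose replicate 2 is the highest high-dose library in 7 of the 9 panels.

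Relatives and regulators of p53 were looked at first, since they act on the same target genes. TP73, a relative of p53 that can bind the same sites, was at 13.2, 13.9 and 12.3 CPM with vehicle and 13.3, 6.30 and 12.1 CPM at the high dose, with the lowest value in high-dose replicate 2 (log2 fold change −0.28 ± 0.20 SE, edgeR adjusted p = 0.493). Without that library it was −0.052, and over all libraries left out in turn it was −0.45 to −0.052. TP63, another relative, had at most 2 counts in any library and was not tested. MDM4, which binds and restrains p53, was at 59.1, 65.3 and 68.3 CPM with vehicle and 56.7, 51.6 and 55.0 CPM at the high dose. The 3 high-dose libraries of MDM4 lay below the 3 vehicle libraries, as in 11.5% of all genes tested, and the log2 fold change was −0.24 ± 0.09 (SE; edgeR adjusted p = 0.168). Of the 17 tested genes of 18 in a list of p53 relatives and regulators, 0 passed an adjusted p under 0.05 at any dose by edgeR or DESeq2. In edgeR, 2, 2 and 1 had an unadjusted p under 0.05 at the high, medium and low dose (20.1%, 11.7% and 7.95% of all genes tested).

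CDKN1A (ENSG00000124762, chromosome 6, 36676460 to 36687337, plus strand) encodes p21, an inhibitor of cyclin-dependent kinases that halts the cell cycle. Its level was 16.1, 14.3 and 14.8 CPM with vehicle, 18.8, 16.6 and 20.1 CPM at the low dose, 20.9, 18.5 and 20.2 CPM at the medium dose and 24.3, 21.6 and 21.6 CPM at the high dose. Every library of each dose lay above every vehicle library, and the high-dose libraries also lay above all of the medium-dose and low-dose libraries, whereas the medium-dose and low-dose libraries overlapped. The means were 15.1 ± 0.928, 18.5 ± 1.79, 19.9 ± 1.25 and 22.5 ± 1.55 CPM (SD, n = 3 each) from vehicle to the high dose. In all genes tested, 10.5% had every high-dose library above every vehicle library, 14.5% every medium-dose library and 11.4% every low-dose library.

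The rise of CDKN1A at the high dose was 0.58 ± 0.09 on the log2 scale (SE), or 1.49-fold with a 95% interval of 1.30 to 1.72, and passed the test (edgeR adjusted p = 0.00320). The medium dose gave 0.40 ± 0.09 (SE; edgeR adjusted p = 0.0752) and the low dose 0.29 ± 0.09 (SE; edgeR adjusted p = 0.405), and neither passed. The high dose no longer passed when edgeR was fitted to the vehicle and high-dose libraries alone (adjusted p = 0.0553). The medium dose, in contrast, passed when fitted with vehicle alone (edgeR adjusted p = 0.0152), in DESeq2 (adjusted p = 0.0090 on all libraries) and without high-dose replicate 2 (edgeR adjusted p = 0.00833). CDKN1A became a DEG at the high dose, by a fold just over the limit, when 1 library was left out: 0.63 on the log2 scale without vehicle replicate 1, 0.61 without high-dose replicate 2 or 3, and 0.59 without low-dose replicate 1, 2 or 3 or medium-dose replicate 2 or 3. The gene overlaps DINOL on the opposite strand. The strand setting of the counting is not given in the sources used here, so reads of the 2 genes may not be told apart.

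The proximal promoter of CDKN1A is shown because this gene rose in cells known for mutant p53, and because the p53 match above lies outside it. It is the RefSeq sequence of chr6:36678464-36678713 in GRCh38.p14, plus strand, with the GC box GGGCGG, a site for Sp1-type factors, in capitals.
CDKN1A promoter: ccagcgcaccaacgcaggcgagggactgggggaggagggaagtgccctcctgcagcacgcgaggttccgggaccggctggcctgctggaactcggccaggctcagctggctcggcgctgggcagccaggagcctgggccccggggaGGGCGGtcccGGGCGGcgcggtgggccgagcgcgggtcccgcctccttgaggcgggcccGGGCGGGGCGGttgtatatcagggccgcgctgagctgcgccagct
The 250 bases hold 4 GC boxes on this strand, the last 2 of which overlap. In RefSeq windows of the 250 bases before the gene start, searched on both strands, GGGCGG was in 46.2% of 27305 genes and in 5 of the 7 p53 target genes that had a window (CDKN1A, MDM2, BAX, FAS and ZMAT3). The AP-1 site TGANTCA was in 8.06% of the windows and in those of MDM2, BBC3 and FAS. The kB site was in 11.8% and in those of FAS, GADD45B and ZMAT3. The C/EBP-ATF element TGATGNAA (3.89%) and the CRE core TGACGTCA (2.03%) were in none of the 7, CDKN1A included. The letters of the motifs can also overlap each other, and a match or its lack says nothing about which factors were bound.

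Over the 4 groups as dose ranks from 0 to 3, CDKN1A was the only one of the 9 genes with a dose trend that passed the test, at 0.18 ± 0.03 per rank on the log2 scale (SE; edgeR adjusted p = 0.00224). A trend passed in 5.74% of all genes tested, a rising one in 2.76%. BBC3 came next by p among the 9, at 0.09 ± 0.05 per rank (SE; edgeR adjusted p = 0.277). The high and low doses were also compared directly, with the spread still estimated from all 12 libraries, vehicle included. There 0 of the 9 genes were DEGs in edgeR or DESeq2, beside 1.58% of all genes tested. An unadjusted p under 0.05 in edgeR was reached by 2 of the 9 (15.4% of all genes tested). In both, every high-dose library lay above every low-dose library, as in 9.61% of all genes tested. These were CDKN1A at 0.28 ± 0.09 (SE; edgeR adjusted p = 0.147) and BBC3 at 0.32 ± 0.11 (SE; edgeR adjusted p = 0.186), each on the log2 scale.

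Genes that p21 is known to lower through the DREAM and RB repressors, such as mitotic and replication genes, were then listed. Of 30 such genes tested, 0 were DEGs at the high dose in edgeR or DESeq2, 6 had an unadjusted p under 0.05 (20.1% of all genes tested did), and 23 had a log2 fold change above 0, with a median of 0.08 beside 0.0052 over all genes tested. CDC6, which loads the replicative helicase, PLK4, which starts centriole duplication, and BUB1B, a spindle checkpoint kinase, passed an adjusted p under 0.05, as did 5.77% of all genes tested, and all 3 were higher (log2 fold changes of 0.30, 0.31 and 0.23, edgeR adjusted p = 0.0150, 0.0451 and 0.0451). They passed without reaching 1.5-fold and are named after their values were seen. By the root mean square difference of the 3 log2 fold changes over the doses, the genes most like CDKN1A among 10618 genes of at least 5 CPM included CKMT1B (0.0268) and JAG2 (0.0326). CKMT1B has a near-identical copy, CKMT1A, so its counts are uncertain.

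**Figure D2:**
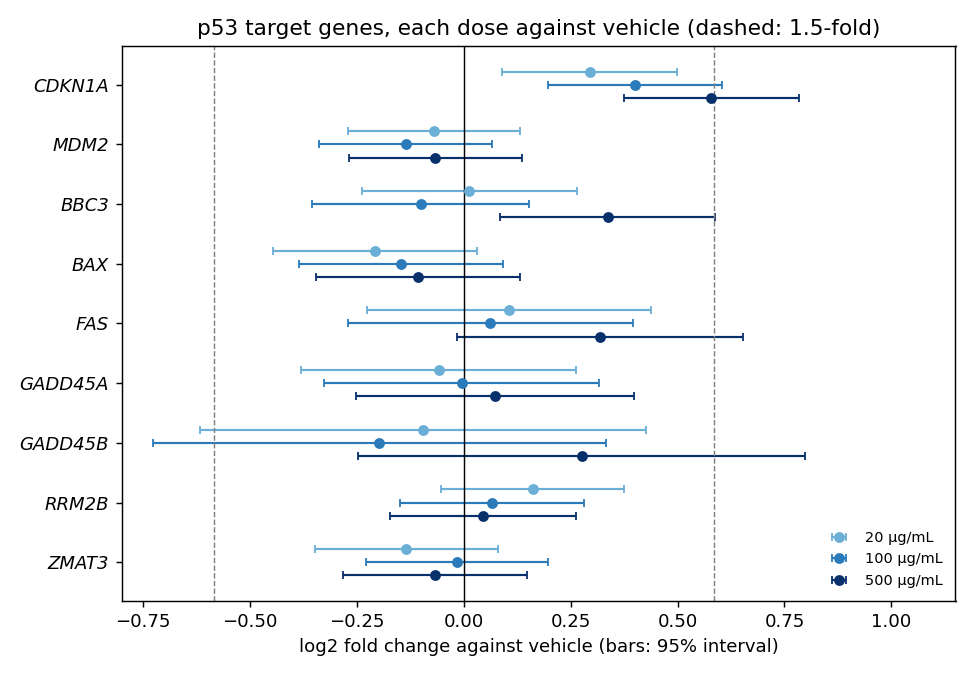
Log2 fold changes of the 9 p53 target genes against vehicle (horizontal axis) at 20, 100 and 500 µg/mL, with 95% intervals as bars and 1.5-fold as dashed lines. The intervals of CDKN1A lie above 0 at all 3 doses, and that of BBC3 at 500 µg/mL only.

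MDM2 (ENSG00000135679, chromosome 12, 68808177 to 68845544, plus strand) encodes the ubiquitin ligase that marks p53 for breakdown, and it is among the most direct readouts of working p53. Its level was 64.6, 67.9 and 70.7 CPM with vehicle, 69.1, 65.6 and 59.0 CPM at the low dose, 56.9, 67.5 and 60.6 CPM at the medium dose and 62.0, 72.1 and 60.4 CPM at the high dose. All 4 groups overlapped. The log2 fold change was −0.07 ± 0.09 at the high dose (SE; edgeR adjusted p = 0.759), and the 95% interval of the fold, 0.830 to 1.10, left out a change of 1.5-fold in either direction. The gene overlaps CPM, carboxypeptidase M, on the opposite strand.

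None of the 3 apoptosis genes passed the test at any dose. BBC3 (ENSG00000105327, chromosome 19, 47220822 to 47232766, minus strand) encodes PUMA, a BH3-only protein that releases BAX and BAK from their inhibitors. Its level was 10.2, 9.09 and 7.65 CPM with vehicle, 9.27, 8.77 and 9.04 CPM at the low dose, 8.45, 7.90 and 8.72 CPM at the medium dose and 10.6, 13.0 and 10.6 CPM at the high dose. All 3 high-dose libraries lay above all other libraries, with high-dose replicate 2 the highest, and the first vehicle library came close to them. The log2 fold change at the high dose was 0.34 ± 0.12 (SE; 1.26-fold, 95% interval 1.06 to 1.50) and did not pass after adjustment (edgeR adjusted p = 0.121). Without high-dose replicate 2 it was 0.24 (edgeR adjusted p = 0.112).

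BAX (ENSG00000087088, chromosome 19, 48954815 to 48961798, plus strand) encodes the protein that permeabilizes the mitochondrial outer membrane. It was at 205, 155 and 151 CPM with vehicle, 140, 145 and 158 CPM at the low dose, 150, 151 and 160 CPM at the medium dose and 151, 173 and 151 CPM at the high dose. The first vehicle library was the highest of all 12, and the other vehicle libraries lay within the range of the doses. The log2 fold change at the high dose was −0.11 ± 0.11 (SE; edgeR adjusted p = 0.652), and without vehicle replicate 1 it was 0.04.

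FAS (ENSG00000026103, chromosome 10, 88953813 to 89029605, plus strand) encodes a death receptor of the cell surface. It was at 5.83, 6.85 and 6.85 CPM with vehicle, 7.56, 6.20 and 7.39 CPM at the low dose, 6.66, 7.21 and 6.59 CPM at the medium dose and 6.53, 10.5 and 7.84 CPM at the high dose. High-dose replicate 2 stood above the rest, and the groups overlapped. The log2 fold change at the high dose was 0.32 ± 0.15 (SE; edgeR adjusted p = 0.274), and it was 0.14 without high-dose replicate 2. The gene overlaps STAMBPL1 on the same strand and ACTA2 on the opposite strand.

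The genes of repair and stress signalling did not pass the test at any dose. GADD45A (ENSG00000116717, chromosome 1, 67685201 to 67688334, plus strand) encodes a stress sensor that binds PCNA and p21. It was at 19.3, 16.1 and 16.5 CPM with vehicle, 16.3, 16.9 and 16.4 CPM at the low dose, 16.9, 18.9 and 15.7 CPM at the medium dose and 15.3, 23.9 and 16.0 CPM at the high dose. The highest value of all was in high-dose replicate 2, and the other 2 high-dose libraries lay below all vehicle libraries. The log2 fold change at the high dose was 0.07 ± 0.15 (SE; edgeR adjusted p = 0.845), and it turned to −0.13 without high-dose replicate 2.

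GADD45B (ENSG00000099860, chromosome 19, 2476122 to 2478259, plus strand), a relative of GADD45A, had the fewest counts of the 9 genes, 17 to 45 per library. It was at 0.936, 1.36 and 1.32 CPM with vehicle, 1.17, 1.27 and 0.985 CPM at the low dose, 0.964, 1.01 and 1.23 CPM at the medium dose and 1.44, 2.05 and 1.14 CPM at the high dose. The groups overlapped, again with high-dose replicate 2 the highest. The 95% interval of the fold at the high dose, 0.843 to 1.74 (edgeR adjusted p = 0.585), held a rise of 1.5-fold, as did those of BBC3 and FAS.

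RRM2B (ENSG00000048392, chromosome 8, 102204502 to 102238961, minus strand) encodes the p53-inducible subunit of ribonucleotide reductase, which supplies nucleotides for DNA repair. It was at 27.1, 26.9 and 29.5 CPM with vehicle, 30.5, 29.1 and 33.7 CPM at the low dose, 27.7, 30.7 and 28.8 CPM at the medium dose and 26.2, 33.3 and 26.9 CPM at the high dose. Its highest group was the low dose, where the log2 fold change was 0.16 ± 0.10 (SE; edgeR adjusted p = 0.746), and at the high dose it was 0.05 ± 0.10 (SE; edgeR adjusted p = 0.859). ZMAT3 (ENSG00000172667, chromosome 3, 178960121 to 179072215, minus strand) encodes a zinc finger protein that binds RNA and acts in splicing. It was at 20.9, 22.5 and 24.1 CPM with vehicle, 22.0, 19.5 and 20.0 CPM at the low dose, 20.6, 23.9 and 22.2 CPM at the medium dose and 23.6, 18.8 and 21.8 CPM at the high dose. It was the 1 gene of the 9 with its lowest high-dose value in replicate 2, and it carries the p53 match with no mismatch (log2 fold change at the high dose −0.07 ± 0.10 SE, edgeR adjusted p = 0.774).

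For MDM2, BAX, GADD45A, RRM2B and ZMAT3, the 95% interval at the high dose left out a change of 1.5-fold in both directions. The same held for 7 of the 9 genes at the medium dose, all but CDKN1A and GADD45B, and for 8 at the low dose, all but GADD45B. The pooled SD of log2 CPM within groups ranged from 0.106 for CDKN1A to 0.276 for GADD45B, beside a median of 0.172 over all genes tested. High-dose replicate 2 was the highest of the 3 high-dose libraries for 7 of the 9 genes, and for 45.2% of all genes tested.

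Beyond these 9 genes, 56 other p53 targets were listed and 51 of them were tested. At the high dose 7 were DEGs, of which 5 rose and 2 fell, beside 2.93% of all genes tested. An unadjusted p under 0.05 was reached by 17 of the 51 (20.1% of all genes tested), the median log2 fold change of the 51 was 0.02, and 28 of them were above 0. At the medium and low doses 0 were DEGs in edgeR or DESeq2, 12 and 6 had an unadjusted p under 0.05 (11.7% and 7.95% of all genes tested), and the medians were 0.0062 and 0.03.

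**Figure D3:**
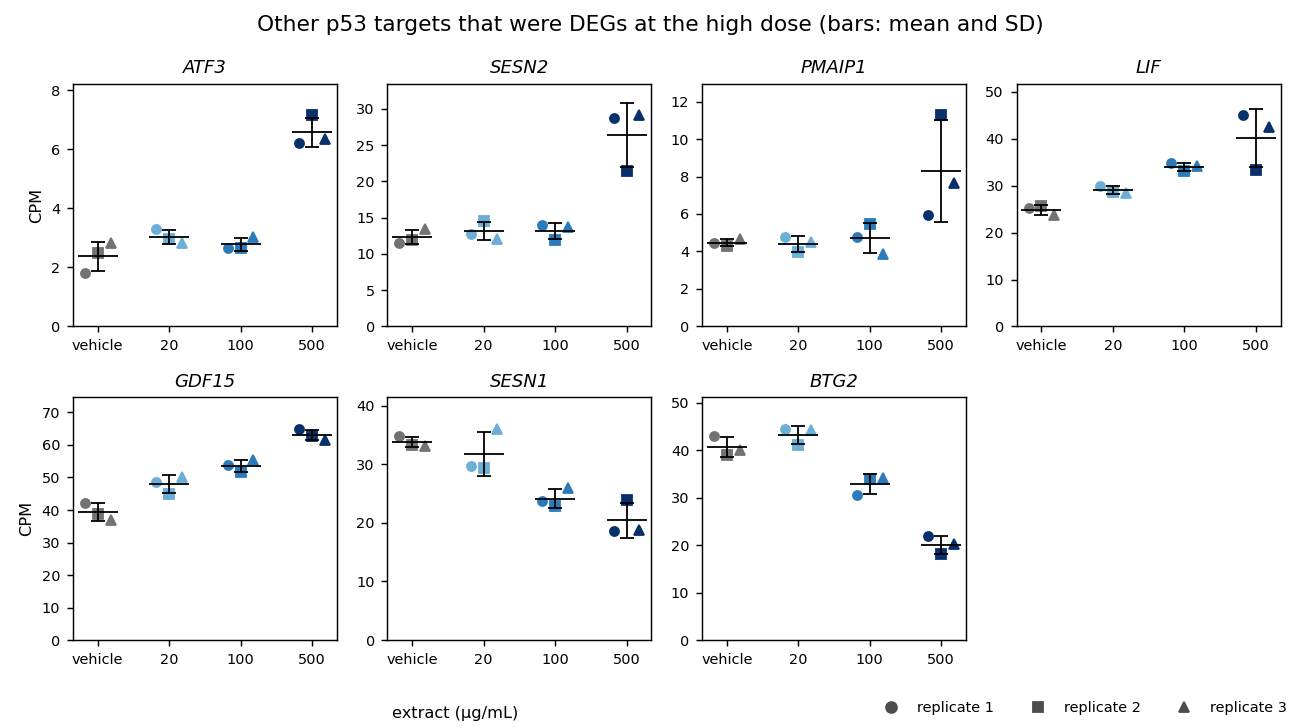
Levels in CPM (vertical axis, from 0) by group (horizontal axis, vehicle or extract in µg/mL) of the 7 other p53 targets that were DEGs at the high dose, with 1 point per library and bars for the mean and SD of the 3 libraries. ATF3, SESN2, PMAIP1, LIF and GDF15 lie above vehicle at 500 µg/mL, and SESN1 and BTG2 below.

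ATF3, a stress-induced transcription factor, was at 1.82, 2.49 and 2.81 CPM with vehicle and 6.21, 7.15 and 6.36 CPM at the high dose, a log2 fold change of 1.45 ± 0.15 (SE; edgeR adjusted p = 0.000106). SESN2, a leucine sensor that restrains mTORC1, was at 11.6, 11.9 and 13.4 CPM with vehicle and 28.8, 21.4 and 29.1 CPM at the high dose, a log2 fold change of 1.11 ± 0.13 (SE; edgeR adjusted p = 0.000262). At the low and medium doses ATF3 was at most 3.30 CPM and SESN2 at most 14.5 CPM in any library. Both are also in a list of ATF4 and CHOP targets, the genes of the integrated stress response. PMAIP1, which encodes the BH3-only protein NOXA, was at 4.46, 4.30 and 4.66 CPM with vehicle and 5.94, 11.3 and 7.66 CPM at the high dose. The 3 high-dose values of PMAIP1 were above the 3 vehicle values but were widely spread (log2 fold change 0.86 ± 0.20 SE, edgeR adjusted p = 0.0264). The call of PMAIP1 ended without vehicle replicate 1, 2 or 3 or high-dose replicate 3 (edgeR adjusted p = 0.0817, 0.111, 0.0741 and 0.0564) and with edgeR on vehicle and the high dose alone (adjusted p = 0.165), as did that of LIF in the last of these (adjusted p = 0.0675).

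LIF and GDF15, which encode a cytokine of the interleukin 6 family and a stress hormone, were higher at each dose than at the one below by their means. LIF was at 25.3, 25.6 and 23.7 CPM with vehicle, 30.0, 28.7 and 28.5 CPM at the low dose, 34.8, 33.0 and 34.3 CPM at the medium dose and 44.9, 33.3 and 42.4 CPM at the high dose, a log2 fold change of 0.70 ± 0.10 (SE; edgeR adjusted p = 0.00117). GDF15, named after its values were seen, was at 42.3, 38.8 and 36.8 CPM with vehicle, 48.5, 44.8 and 50.2 CPM at the low dose, 53.8, 51.5 and 55.3 CPM at the medium dose and 64.9, 62.8 and 61.6 CPM at the high dose. None of the 4 groups of GDF15 overlapped, the log2 fold change at the high dose was 0.68 ± 0.07 (SE; edgeR adjusted p = 0.000162), and GDF15 was the 1 gene of the 51 that passed an adjusted p under 0.05 at the medium dose (0.45 ± 0.07 SE, edgeR adjusted p = 0.0103), where it stayed under 1.5-fold. In DESeq2, 4 of the 51 passed an adjusted p under 0.05 at the medium dose, 2 higher and 2 lower, and 1 at the low dose, all under 1.5-fold.

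BTG2 and SESN1, both known as targets raised by working p53, fell. BTG2, an antiproliferative factor that recruits the deadenylase complex, was at 42.9, 39.0 and 40.1 CPM with vehicle, 44.4, 41.0 and 44.3 CPM at the low dose, 30.5, 33.9 and 34.1 CPM at the medium dose and 21.8, 18.1 and 20.2 CPM at the high dose. It fell by 1.02 ± 0.09 on the log2 scale at the high dose (SE; edgeR adjusted p = 2.93e-05). SESN1, a relative of SESN2, was at 34.7, 33.3 and 33.1 CPM with vehicle, 29.7, 29.4 and 36.0 CPM at the low dose, 23.6, 22.8 and 25.9 CPM at the medium dose and 18.6, 23.9 and 18.7 CPM at the high dose. It fell by 0.73 ± 0.11 on the log2 scale at the high dose (SE; edgeR adjusted p = 0.00193), so that the 2 sestrin genes moved in opposite directions. TGFA, a ligand of the EGF receptor (0.32 ± 0.07 SE, edgeR adjusted p = 0.0195), and SFN, which encodes 14-3-3 sigma (−0.43 ± 0.11 SE, edgeR adjusted p = 0.0499), passed the adjusted p alone and are named after their values were seen. Over 20 alternatives the adjusted p stayed under 0.05 in 15 for TGFA and in 5 for SFN. It was lost, among others, without vehicle replicate 1 (0.0714 and 0.170), vehicle replicate 2 (0.0689 and 0.0949) and high-dose replicate 1 (0.0713 and 0.0640). For SFN it was also lost without high-dose replicate 2 or 3 or any 1 library of the low and medium doses (0.0511 to 0.125).

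Over the dose ranks, 9 of the 51 passed the trend test, 7 rising and 2 falling, beside 5.74% of all genes tested. Without high-dose replicate 2, the genes of the whole table that passed the trend test rose from 882 to 2744. With all 12 libraries, the 9 of the 51 that passed included the 7 DEGs of the high dose, with slopes from −0.34 per rank on the log2 scale for BTG2 to 0.45 for ATF3. TGFA at 0.11 and STEAP3, a metalloreductase of the endosome named after its value was seen, at 0.10 were also among these 9.

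**Figure D4:**
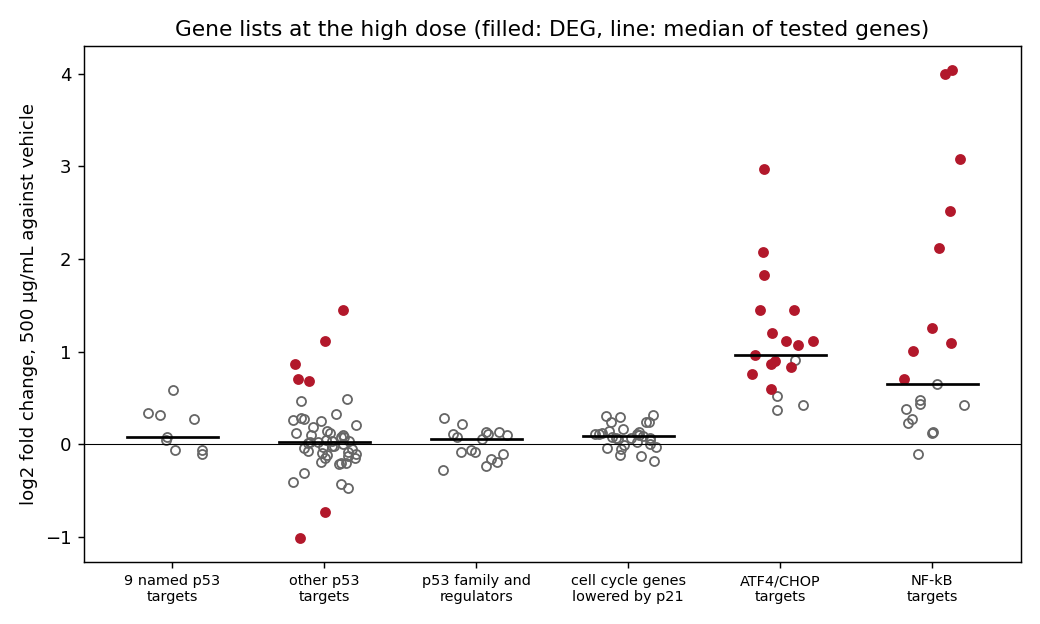
Log2 fold changes at 500 µg/mL against vehicle (vertical axis) of the tested genes in 6 lists (horizontal axis), with DEGs filled and the median of each list as a line. The medians of the 4 p53 and cell cycle lists lie between 0.02 and 0.08, and those of the ATF4 and CHOP targets and the NF-kB targets at 0.96 and 0.65.

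Lists for other stress pathways are given from the same libraries. They were chosen with earlier results of these data known, so their counts are no neutral scale for the p53 targets. Of 19 tested targets of ATF4 and CHOP, 15 were DEGs at the high dose, all higher, with a median log2 fold change of 0.96, and 1 and 0 were DEGs at the medium and low doses. Of 19 tested targets of NF-kB, 9, 6 and 1 were DEGs at the high, medium and low doses, all higher, with medians of 0.65, 0.49 and 0.35, and DESeq2 called 8, 6 and 3. Of all genes tested, 2.93%, 0.676% and 0.111% were DEGs at these doses. The 9 p53 target genes had 0 DEGs at each of these doses. Whether the lists differ beyond the choice of their genes was not tested.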

How the data were processed

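RNA of HT29 cells was sequenced as 100 bp paired-end reads from a directional library kit. Per the labels' processing notes, the submitters used FastQC 0.11.9, Trim Galore 0.6.5, STAR 2.7.3a and RSEM 1.3.3, with a GRCh38 annotation. The strand setting is not given in the sources used here. The deposited values are expected counts per gene from RSEM, which the authors did not normalize.

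The expected counts were rounded and tested with edgeR 4.0.16 in R 4.3.3 (filterByExpr, TMM, robust quasi-likelihood test, all 12 libraries, groups as the only terms), with DESeq2 1.42.0 and the changes given below as alternatives. Standard errors and 95% intervals come from the F statistic and its degrees of freedom. The script was tested on simulated data. Symbols were found for 93.2% of the IDs. Within groups, no pair of libraries agreed within sampling noise.

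The 9 genes and all lists were chosen with earlier results of these data known. Named by rule were the 9 genes, TP63, TP73, MDM4, the 4 highest and 4 lowest DEGs among the other p53 targets (at least 1 CPM, high dose), and the 3 genes most like CDKN1A. Up to 3 DEGs of each remaining list could be named. ATF4 and FOSB are named from the immediate-early and stress transcription factors, and the DEGs of the other lists are given as counts only. Some genes that the rule names are not reported here. Other names are stated as chosen after their values were seen. Libraries of other cells or agents were not analysed here.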

Additional observations from a re-analysis of the deposited data

How the results depend on the processing

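CDKN1A at the high dose lay between 0.52 and 0.63 on the log2 scale over 20 alternatives, and its adjusted p was under 0.05 in 19 of them (2.39e-06 to 0.0553). The number of DEGs among the 9 genes at the high dose was 0, became 1 with no minimum fold (CDKN1A), and was 0 to 1 when 1 library was left out. With no minimum fold, 1 of the other p53 targets passed at the medium dose (GDF15). Their number at the high dose was 5 with edgeR on vehicle and the high dose alone, 9 with no minimum fold, 6 to 8 with 1 library left out and 7 in the remaining alternatives. Over all genes, the 451 DEGs of the high dose became 172 with edgeR on vehicle and the high dose alone and 887 with no minimum fold. Without mitochondrial genes they became 438, and CDKN1A at the high dose was 0.58 on the log2 scale (edgeR adjusted p = 0.00317). Over all genes at the medium and low doses, 104 and 17 DEGs became 191 and 51 with edgeR on vehicle and that dose alone, 169 and 76 with DESeq2 on the same libraries, 59 at the low dose with DESeq2 on all libraries and 34 at the low dose with no filter. Leaving out high-dose replicate 2 gave 768, 249 and 109 DEGs at the high, medium and low dose and 2744 genes with a trend in place of 882, and leaving out any other library gave 310 to 414, 52 to 98 and 10 to 20 DEGs and 452 to 788 genes with a trend. The genes with a trend were 1433 with DESeq2, and 87 DEGs replaced 243 between the high and low doses with edgeR on these alone. The causes were not tested.

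The replicate numbers did not pair the libraries. Libraries of the same number deviated from their group means with correlations of −0.495 to 0.372, and 4 of the 12 libraries correlated best with their own number. With the replicate number as a block, CDKN1A at the high dose was 0.57 (edgeR adjusted p = 0.00373), the numbers of DEGs were still 0 among the 9 genes and 7 among the other p53 targets, the trend was still passed by 1 of the 9, and 379 genes in all were DEGs at the high dose.

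GADD45A at the medium dose, −0.0050 on the log2 scale, turned to 0.0030 with edgeR and 0.00034 with DESeq2 on those groups alone, 5.9e-05 without mitochondrial genes and 0.011 with no filter. With 1 library left out, the log2 fold change at the high dose ranged from −0.18 to 0.044 for BAX, −0.13 to 0.19 for GADD45A, −0.063 to 0.11 for RRM2B and −0.14 to 0.0075 for ZMAT3. At the medium dose it ranged from −0.22 to 0.0051 for BAX, −0.0044 to 0.11 for FAS, −0.078 to 0.077 for GADD45A and −0.066 to 0.043 for ZMAT3. At the low dose it ranged from −0.089 to 0.10 for BBC3, −0.11 to 0.023 for GADD45A and −0.23 to 0.0089 for GADD45B. None of these changes had an adjusted p under 0.05 in any alternative. GADD45B had 17 to 45 counts per library, and what this depth adds to its spread was not tested.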

Other observations

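Partners and relatives of the 9 genes, such as cyclin-dependent kinases and BCL2 family members, were listed with 21 genes, of which 20 were tested. At the high, medium and low doses 0 were DEGs in edgeR or DESeq2, and the medians of the log2 fold change were 0.09, 0.01 and 0.02. An unadjusted p under 0.05 in edgeR was reached by 3, 4 and 3 of them (20.1%, 11.7% and 7.95% of all genes tested). CDK2, a kinase that p21 inhibits, was the 1 gene of the 20 with a dose trend that passed, beside 5.74% of all genes tested. Its slope was 0.07 ± 0.02 per rank on the log2 scale (SE; edgeR adjusted p = 0.0475), and it is named after its value was seen. Of 18 immediate-early and stress transcription factors tested, 2 were DEGs at the high dose, beside 2.93% of all genes tested. These were ATF4 (0.59 ± 0.08 SE, edgeR adjusted p = 0.00146) and FOSB (0.81 ± 0.17 SE, edgeR adjusted p = 0.0178), both higher. At the medium and low doses 0 of the 18 were DEGs in edgeR, and DESeq2 called 1 and 0. An unadjusted p under 0.05 in edgeR was reached there by 6 and 1 of the 18 (11.7% and 7.95% of all genes tested).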
